A study of Mus musculus with 21 samples.

Results

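The genes described here are those that were close to silent in untreated mouse embryonic stem cells and present after 8 h with each of a pair of RNA polymerase I inhibitors, BMH-21 and CX-5461. A gene was a member when its mean log2 CPM (read counts scaled to the library size, on a log2 scale) over the untreated libraries was at most -1.5 and its mean over the 8 h libraries was at least 0.5 with BMH-21 and at least 0.5 with CX-5461. Of the 20900 genes in the table, 5826 met the first condition and 124 met all of them. After the omission of Dux and Krt5 (no Hox or Hist gene met the conditions), 122 members remained, which is 2.09% of the silent genes. The members were thus chosen by the untreated and 8 h values of these libraries, so differences between those libraries, or between either of them and any other group, are given as a description without a test. Only the 2 h and 4 h libraries, whose values the choice did not use, were compared with a test. A member had to go from silent to present between 0 h and 8 h, so a higher level at 4 h than at 2 h was made likely by the choice, and the counts of such members are no independent support for it. Members also had to be present at 8 h with CX-5461, which fewer silent genes were than with BMH-21. The choice may therefore also bear on the differences between the inhibitors at 2 h and 4 h.

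RNA polymerase I transcribes the ribosomal RNA precursor in the nucleolus, and both compounds block that step. Inhibition of ribosome production disturbs the nucleolus and is known to stabilise p53, a transcription factor that activates genes of cell cycle arrest and apoptosis. Many genes used in 1 differentiated tissue, such as those of muscle, hair or synapses, are normally inactive in embryonic stem cells.

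The cells were E14, an embryonic stem cell line of the 129 mouse strain, grown in serum medium with LIF, the cytokine that keeps such cells undifferentiated. They were left untreated (0 h) or given 1 µM BMH-21 or 1 µM CX-5461 for 2, 4 or 8 h, with 3 polyA RNA libraries in each of the 7 groups. There was 1 untreated group, sampled at 0 h, so time in fresh medium and time with a compound cannot be told apart. Whether the libraries of a group came from separate cultures is not stated, and the p-values measure only the spread between these libraries. All 7 groups share this line, medium and strain. The summed level of 10 pluripotent cell markers was 6464 to 7398 CPM in the untreated libraries. With BMH-21 it was 3592 to 4166 at 4 h and 3128 to 3375 at 8 h. With CX-5461 it was 3673 to 4409 at 4 h and 5916 to 6391 at 8 h.

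Read support differed strongly between the times. A member had between 0 and 26 reads in an untreated library, with a median of 10, and 39 members had at most 10 reads in every untreated library. At 2 h the median was 17.5 reads per library with BMH-21 and 22 with CX-5461. At 4 h it was 123.5 and 130.5 reads, and at 8 h 383.5 and 106 reads. Every member had at least 86 reads in each BMH-21 library at 8 h and at least 50 in each CX-5461 library, out of 46604397 to 62812641 reads per library. The low counts of the untreated and 2 h libraries are therefore the least precise values below. The median over the member means was -2.17 log2 CPM in untreated cells. With BMH-21 it was -1.34, 1.26 and 2.45 at 2, 4 and 8 h, and with CX-5461 it was -1.27, 1.30 and 1.14.

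**Figure D1:**
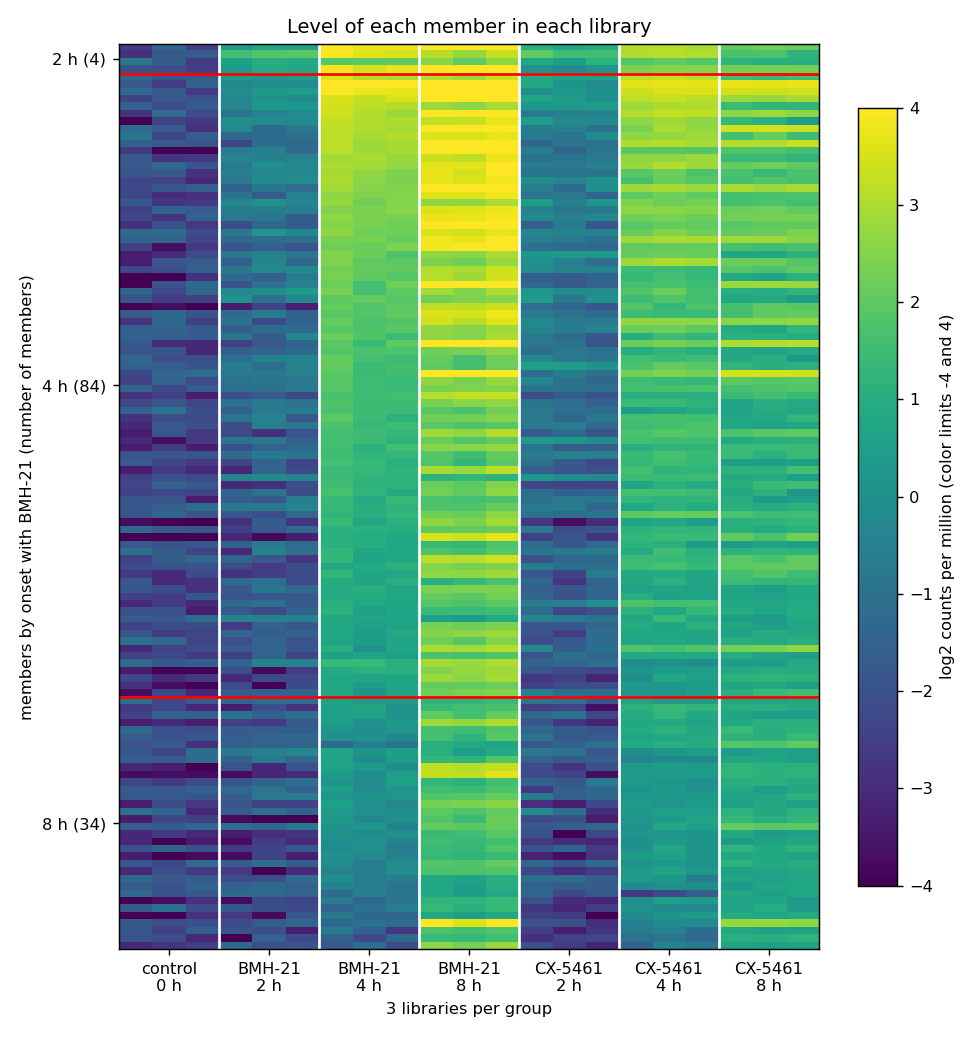
Heat map of log2 CPM for the 122 members (rows) in the 21 libraries (columns, 3 per group), with rows ordered by the time at which the BMH-21 mean first reached 0.5 and red lines between these classes. Most rows change color between the 2 h and 4 h columns with both inhibitors, and the BMH-21 8 h columns are the brightest.

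The 3 thresholds cut through a continuous range. Chdh and Cnbd2 lay just inside the untreated limit with means of -1.5 and -1.51, and Vipr1 and Bgn lay just outside it with means that also round to -1.5. At the BMH-21 limit Sox10 (0.61) and Ush1c (0.69) were the lowest members, and Lmx1a (-0.34) and Stmn4 (-0.61) were the nearest genes outside. At the CX-5461 limit Pax7 (0.50) and Slc5a8 (0.51) were just inside, and Scn10a (0.48) and Mst1r (0.47) just outside. The CX-5461 threshold was the narrower one, since 326 silent genes were on (mean of at least 0.5) with BMH-21 at 8 h and 128 with CX-5461. Of these genes, 202 were on with BMH-21 alone and 4 with CX-5461 alone. RefSeq classed 118 members as protein-coding, 2 as long noncoding RNAs and 1 as a transcribed pseudogene, and 1 had no entry.

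Klhl30, a member of the kelch-like protein family that marks the set, lies at chr1:91351073-91362404 on the plus strand (RefSeq, GRCm38.p6, which has the coordinates of the mm10 build named in the submitters' processing notes). Its 3 untreated libraries held 7, 1 and 2 reads, and its log2 values there were -2.64, -4.92 and -4.24. With BMH-21 the values were -0.73, -0.48 and -1.20 at 2 h, 3.17, 2.83 and 2.95 at 4 h, and 4.18, 4.06 and 4.45 at 8 h. With CX-5461 they were -0.61, -1.43 and -0.89 at 2 h, 1.95, 1.94 and 1.86 at 4 h, and 1.83, 1.82 and 1.65 at 8 h. Klhl30 was thus near the detection limit before treatment, and the groups at 2 h and 4 h did not overlap with either inhibitor. It rose between 2 h and 4 h by 3.78 ± 0.23 (SE) with BMH-21 (limma, adjusted p = 6e-31) and by 2.89 ± 0.23 with CX-5461 (adjusted p = 4.6e-22).

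Most members had the same onset time with both compounds. The choice favours this, since only genes on at 8 h with both were kept, so nothing is read from the agreement. Onset is the first time at which a member's mean reached 0.5, the level asked for at 8 h. With BMH-21, 4 members were on by 2 h, 84 came on at 4 h and 34 at 8 h. With CX-5461 the numbers were 4, 86 and 32. The onset time was the same with both inhibitors for 108 members and different for 14. Of those 108 members, 3 were on at 2 h, 78 at 4 h and 27 only at 8 h.

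Already at 2 h, before most members passed the onset level, 107 member means were above the untreated mean with BMH-21 and 108 with CX-5461. Every 2 h library was above every untreated library for 62 members with BMH-21 and for 71 with CX-5461. Over all 14666 genes tested, this held for 11.0% with BMH-21 and 8.71% with CX-5461. At 4 h it held for 119 members with BMH-21 (22.8% of all genes tested did so) and for 121 with CX-5461 (20.8%). Membership itself used the untreated libraries, so nothing is read from these shares. In RNA from whole cultures, more cells with a transcript and more RNA per cell cannot be told apart.

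The earliest members were Fosl1, Fas and Klhdc7a, which were on at 2 h with both inhibitors. Fosl1 encodes FRA-1, a subunit of the AP-1 transcription factor. It had 6, 13 and 14 reads in untreated cells (log2 -2.85, -1.75 and -1.71) and 141, 175 and 171 reads in the BMH-21 libraries at 2 h (1.58, 1.86 and 1.94). CX-5461 at 2 h gave 173, 169 and 171 reads (2.04, 1.55 and 1.56). Its 2 h libraries were all above the untreated ones and overlapped between the compounds, with a difference of 0.08 ± 0.17 (SE; adjusted p = 0.83).

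Fas encodes a death receptor of the TNF receptor family and is a known p53 target. Of the 44 p53 targets examined, only 1 was silent in untreated cells and so could be a member. This was Fas, the one member on the list. Its untreated values were -2.64, -1.38 and -2.48. BMH-21 gave 0.42, 0.81 and 0.59 at 2 h, 3.96, 3.76 and 3.78 at 4 h, and 4.59, 4.67 and 4.81 at 8 h. CX-5461 gave 1.02, 0.75 and 0.95 at 2 h, 3.10, 3.08 and 2.94 at 4 h, and 2.09, 2.28 and 2.15 at 8 h. The 4 h libraries of the inhibitors did not overlap, and the BMH-21 level was higher by 0.79 ± 0.16 (adjusted p = 0.00011). Summed over the 44 listed p53 targets in the table, the level was 2503 to 2826 CPM in untreated cells, 8028 to 9646 with BMH-21 at 4 h and 6394 to 7598 with CX-5461 at 4 h.

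Klhdc7a, a kelch domain gene, was on at 2 h at 0.82 ± 0.22 (SD, n = 3) under BMH-21 and 0.82 ± 0.32 under CX-5461, from -1.71 ± 0.92 in untreated cells. It changed less afterwards than most members, rising between 2 h and 4 h by 1.17 ± 0.20 (SE; adjusted p = 4e-07) and 1.11 ± 0.20 (adjusted p = 2.2e-06). Krt36, a hair keratin, was on at 2 h with BMH-21 (0.33, 0.89 and 0.81) and at 4 h with CX-5461 (0.14, -0.14 and 0.23 at 2 h). Myt1, a zinc finger transcription factor of neural precursors, was on at 2 h with CX-5461 (0.82, 0.58 and 0.65), while BMH-21 at 2 h gave 0.40, 0.12 and 0.41. Myt1 lay close to the onset level with both, and its difference at 2 h was -0.37 ± 0.17 (BMH-21 minus CX-5461, adjusted p = 0.25).

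**Figure D2:**
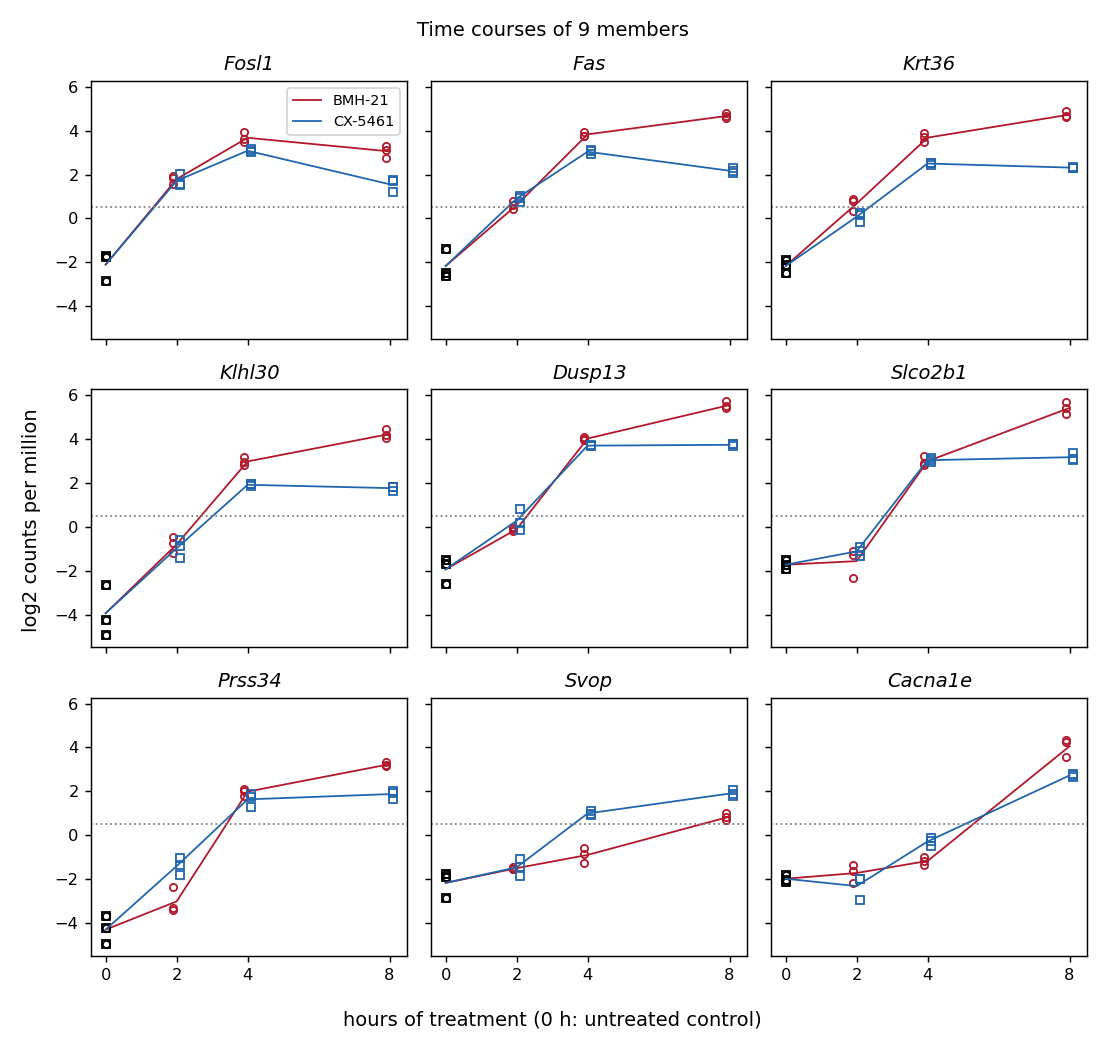
Log2 CPM (vertical axis) against hours of treatment for 9 members, with each library as a point (black: untreated, red circles: BMH-21, blue squares: CX-5461), lines through the group means and a dotted line at 0.5. The group means of Fosl1 and Fas are above the dotted line at 2 h. Those of Klhl30, Dusp13, Slco2b1 and Prss34 cross it between 2 h and 4 h, and those of Cacna1e between 4 h and 8 h.

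Promoter sequences from RefSeq (GRCm38.p6) were matched for 87 members and 4 are shown as examples, chosen after the values were seen. Fas and Klhdc7a were on at 2 h, Dusp13 had the highest average 8 h mean, and Art4 had the largest decline after 4 h of CX-5461. Other members also hold listed motifs. Each is the 250 bases before the annotated start, written 5′ to 3′ along the gene. In Fas (chr19:34290409-34290658, plus strand) the capitals mark the AP-1 motif TGANTCA at -211 to -205 and the E-box CACGTG at -110 to -105, counted from the start. In Dusp13 (chr14:21748623-21748872, minus strand) they mark TGANTCA at -72 to -66. In Klhdc7a (chr4:139968027-139968276, minus strand) and Art4 (chr6:136857601-136857850, minus strand) they mark the p53 half-site, at -230 to -221 and -74 to -65.
Fas: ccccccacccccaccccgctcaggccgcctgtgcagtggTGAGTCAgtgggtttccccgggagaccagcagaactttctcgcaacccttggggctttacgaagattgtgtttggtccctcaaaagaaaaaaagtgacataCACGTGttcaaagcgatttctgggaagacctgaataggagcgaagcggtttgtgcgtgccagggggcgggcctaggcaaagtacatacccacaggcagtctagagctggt
Dusp13: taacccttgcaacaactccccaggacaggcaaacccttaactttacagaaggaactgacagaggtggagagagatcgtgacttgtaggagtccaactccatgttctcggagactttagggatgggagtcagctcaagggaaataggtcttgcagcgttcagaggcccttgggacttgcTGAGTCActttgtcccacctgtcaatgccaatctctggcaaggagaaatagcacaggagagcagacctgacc
Klhdc7a: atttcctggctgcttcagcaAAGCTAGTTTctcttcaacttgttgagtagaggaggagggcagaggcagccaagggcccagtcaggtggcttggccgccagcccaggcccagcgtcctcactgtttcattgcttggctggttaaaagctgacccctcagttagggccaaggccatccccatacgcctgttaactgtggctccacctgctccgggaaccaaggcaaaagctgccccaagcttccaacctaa
Art4: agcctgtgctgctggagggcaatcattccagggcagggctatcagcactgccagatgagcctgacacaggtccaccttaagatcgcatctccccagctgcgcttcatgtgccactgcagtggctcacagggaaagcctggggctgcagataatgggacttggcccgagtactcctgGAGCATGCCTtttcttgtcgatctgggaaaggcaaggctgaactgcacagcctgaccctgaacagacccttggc

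Motifs were searched on both strands of these windows, and the shares below are descriptions. The p53 half-site was found in 13 of the 87 member promoters (14.9%) and in 8.20% of all 27025 promoters. TGANTCA was found in 5 (5.75%, against 7.82% of all), in Adh7, Arpp21, Dusp13, Fas and Slc2a9. CACGTG was found in 2 (2.30% against 6.86%), TATAAA in 9 (10.3% against 14.3%), GGGCGG in 26 (29.9% against 35.4%) and CCAAT in 37 (42.5% against 37.5%). GGGCGG and CCAAT occurred in the largest numbers of member promoters, and the window of Fas also holds GGGCGG. The median number of CpG dinucleotides was 4 in member promoters, 3 in those of the other silent genes and 6 over all genes.

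Most members had a higher level at 4 h than at 2 h, which the choice of genes that were silent at 0 h and present at 8 h largely fixes. The shares of all genes are printed for scale, and nothing is read from the difference. With BMH-21, 118 of 122 members rose (20.8% of all genes tested rose) and 0 fell (34.8% of all genes fell). With CX-5461, 121 rose (20.7%) and 0 fell (26.8%). At an unadjusted p under 0.05, 120 members differed with BMH-21 (59.8% of all genes tested did) and 121 with CX-5461 (53.5%). Every 4 h library was above every 2 h library for 119 members with BMH-21 (21.8%) and for 121 with CX-5461 (21.6%). The median change was 2.71 under BMH-21 and 2.59 under CX-5461, where the median over the genes tested was -0.13 and -0.09. All 122 members passed the filter on low values, which their 8 h libraries ensured.

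The members that did not pass the test with BMH-21 were Cacna1e (0.55 ± 0.25, SE, adjusted p = 0.059), Galnt18 (0.78 ± 0.35, adjusted p = 0.051), Adh7 (0.44 ± 0.32, adjusted p = 0.24) and Gsg1l (0.08 ± 0.33, adjusted p = 0.84). With CX-5461 it was Adh7, with a difference of -0.36 ± 0.32 (adjusted p = 0.36). Adh7, an alcohol and retinol dehydrogenase, was the one member with a lower CX-5461 mean at 4 h than at 2 h. Cacna1e, Galnt18, Adh7 and Gsg1l all had onset at 8 h with both inhibitors.

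The largest rises with BMH-21 were those of Prss34 (5.00 ± 0.25, adjusted p = 5.7e-38), Myo7b (4.89 ± 0.37, adjusted p = 2.9e-24), Slco2b1 (4.56 ± 0.18, adjusted p = 1.8e-48), Glp2r (4.38 ± 0.31, adjusted p = 1.2e-25) and Eva1c (4.23 ± 0.19, adjusted p = 7.5e-42). With CX-5461 they were those of Slco2b1 (4.16 ± 0.18, adjusted p = 2.4e-44), Tshr (4.10 ± 0.30, adjusted p = 7.1e-25), Itgad (3.80 ± 0.34, adjusted p = 5.3e-19), Arhgef33 (3.76 ± 0.19, adjusted p = 5.1e-38) and Glp2r (3.75 ± 0.31, adjusted p = 8.2e-21). Slco2b1, an organic anion transporter, went from 9, 22 and 18 reads to 439, 405 and 420 under BMH-21 and from 16, 30 and 27 to 543, 407 and 424 under CX-5461. Its libraries at the 2 times were far apart with both compounds. Myo7b, a myosin of intestinal and kidney microvilli, rested on 3, 0 and 2 reads at 2 h of BMH-21, and the size of its rise depends on how such counts are treated. It was 3.01 with an offset of 5 reads, and 0.12 and short of the threshold when log2 values below 0 were set to 0. The moderated spread also understates the error of some members, since 26 of the 122 had an own variance over 2 times the moderated one.

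Transcription regulators were 8 of the members, and all 8 rose between 2 h and 4 h with each inhibitor. Of all 122 members, 118 rose with BMH-21 (20.8% of all genes tested rose) and 121 with CX-5461 (20.7%). The choice of genes largely fixes this, so nothing is read from counts of rises by role or onset group, here and below. Foxn1, a forkhead factor of thymic and hair epithelium, rose by 3.32 ± 0.19 under BMH-21 and 3.62 ± 0.19 under CX-5461. Myog, the muscle differentiation factor myogenin, rose by 2.40 ± 0.22 and 1.74 ± 0.22. Heyl, a Notch target, Pax7 of muscle and neural precursors, Sox10 of neural crest and glia, Myt1 and Eya2, a transcriptional coactivator and phosphatase, completed this group with Fosl1. Foxn1 had 35, 34 and 33 reads at 2 h of BMH-21 and 350, 451 and 377 at 4 h, without overlap. Sox10 was among the weakest members, with log2 values of 0.53, 0.42 and 0.88 at 8 h of BMH-21. Eya2 alone of the 8 had onset at 8 h with both compounds.

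Ion channels and transporters were the largest named group with 18 members, of which 17 rose with BMH-21 and 18 with CX-5461. P2rx6, an ATP-gated channel subunit, rose by 3.55 ± 0.16 and 2.89 ± 0.16. Trpv1, the capsaicin receptor, rose by 3.00 ± 0.24 and 2.56 ± 0.24. Scn4b, a sodium channel auxiliary subunit, rose by 3.20 ± 0.17 and 2.63 ± 0.17. The exception with BMH-21 was Cacna1e. In this group 8 members had onset at 8 h with BMH-21 and 6 with CX-5461, among them the potassium channel Kcna6, the urate transporter Slc2a9 and the chloride channel Ano2. By symbol lists, ion channels and solute carriers made up 13.9% of the set and 4.02% of the silent genes, G protein-coupled receptors 1.64% and 6.99%, and genes without a functional name 4.10% and 31.7%. These shares are descriptions without a test. The receptor list goes by symbol and held Adgrb3 and Olfr287 of the members. It missed Glp2r and Tshr, which are also G protein-coupled receptors, so 1.64% is too low. The same list was applied to the silent genes, so 6.99% may be too low as well.

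Cell surface receptors counted 9 members, and all rose with both inhibitors. Glp2r, the receptor of glucagon-like peptide 2, had 0, 2 and 0 reads in untreated cells, 5, 3 and 4 in the 2 h BMH-21 libraries, 101, 110 and 100 at 4 h, and 679, 858 and 832 at 8 h. With CX-5461 it had 7, 16 and 8 reads at 2 h, 163, 128 and 144 at 4 h, and 207, 174 and 207 at 8 h. Siglec1, a sialic acid-binding receptor of macrophages, rose by 3.64 ± 0.17 and 3.43 ± 0.17. Tshr, the thyrotropin receptor, had onset at 8 h with BMH-21 (0.54, 0.69 and 0.08 at 4 h) and at 4 h with CX-5461 (1.15, 1.42 and 1.22). The adhesion receptor Adgrb3, the integrin Itgad and the neutrophil antigen Cd177 were also in this group. The odorant receptor Olfr287 belongs to a large family of similar genes, and its value is uncertain for that reason.

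Secreted ligands and matrix genes were 12, and all 12 rose with both. Slit1, an axon guidance ligand, rose by 2.35 ± 0.19 under BMH-21 and 3.28 ± 0.19 under CX-5461. Wnt8b, a WNT ligand of the forebrain, rose by 3.26 ± 0.23 and 3.46 ± 0.23. Matn4, a matrilin of the extracellular matrix, rose by 3.71 ± 0.22 and 3.49 ± 0.22, and the laminin chain gene Lamc3 by 3.82 ± 0.24 and 3.42 ± 0.24. The 4 proteases (Prss34, Ctrc, Tmprss3 and Astl) all rose with both. Astl, an egg metalloprotease, rose by 4.08 ± 0.21 and 3.40 ± 0.21.

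Signalling regulators were 5, and all rose with both inhibitors. Dusp13, a dual-specificity phosphatase of testis and skeletal muscle, had 41, 47 and 41 reads at 2 h of BMH-21, 811, 908 and 869 at 4 h and 2731, 3683 and 3327 at 8 h. With CX-5461 it had 74, 64 and 52 reads at 2 h, 845, 622 and 709 at 4 h and 672, 666 and 589 at 8 h. It had the highest average of the 8 h means of any member (4.64). Arhgef33 and Rgs5, a regulator of G protein signalling, belong to the same group. Members with a high average at 8 h also included Slco2b1 (4.30), the scaffold gene Mpp4 of photoreceptors (4.12), Siglec1 (4.06), Slit1 (3.90) and Arhgef33 (3.75). These averages are not corrected for transcript length. After division by exon length, on a log2 scale per kilobase, the top 3 levels were those of Gm11544 (3.89), Dusp13 (3.19) and Krt36 (2.79).

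Neural adhesion and synapse genes were 9, of which 8 rose with BMH-21 and 9 with CX-5461. The exception was Gsg1l, an auxiliary subunit of AMPA receptors. Metabolic and modifying enzymes were 14, of which 12 rose with BMH-21 and 13 with CX-5461, with Adh7 and Galnt18 as the exceptions named above. Cyp2f2 and Cyp4f40, both cytochrome P450 enzymes, rose by 3.58 ± 0.26 and 1.86 ± 0.22 under BMH-21 and by 3.16 ± 0.26 and 1.84 ± 0.22 under CX-5461. Ces2b and Ces2g are similar carboxylesterase genes, as Sbp and Sbpl are similar to each other, and reads could have been split between them.

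Muscle genes were 5 and epithelial cytoskeleton and adhesion genes were 5, and all 10 rose with both inhibitors. Ckm, the muscle creatine kinase, had 2, 11 and 19 reads in untreated cells, 211, 175 and 261 in the 4 h BMH-21 libraries and 1465, 1954 and 1699 at 8 h. CX-5461 gave 202, 153 and 157 reads at 4 h and 338, 371 and 293 at 8 h. Xirp1, an actin-binding protein of striated muscle, rose by 2.76 ± 0.24 and 2.93 ± 0.24, and the cadherin Cdh26 by 3.23 ± 0.28 and 3.20 ± 0.28. The summed level of 10 epidermal cell markers, a list that holds the omitted Krt5, was 13.4 to 15.3 CPM in untreated cells, 70.4 to 82.5 with BMH-21 at 4 h, 211 to 266 at 8 h, and 63.4 to 67.6 with CX-5461 at 8 h. Its part in the result was not tested. The remaining 33 members had other or unknown functions, and all 33 rose with both.

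**Figure D3:**
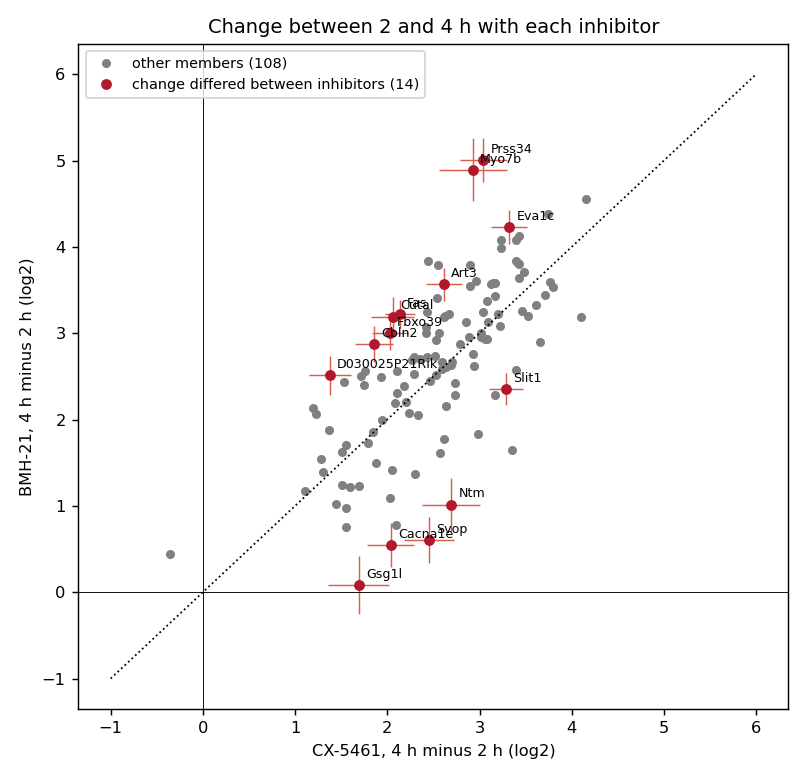
Difference between the 4 h and 2 h means (log2) for each of the 122 members, with CX-5461 on the horizontal and BMH-21 on the vertical axis and the line of equal change dotted. Red points with SE bars are the 14 members whose change differed between the inhibitors at an adjusted p under 0.05; Prss34 and Myo7b lie farthest above the line, and Svop, Ntm, Gsg1l and Cacna1e lie below it.

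The sizes of the changes between 2 h and 4 h were alike in order with the 2 inhibitors, with a Spearman correlation of 0.72 across the 122 members. The members were all chosen by the same untreated and 8 h libraries, so the value is a description. The difference between the inhibitors in this change was itself tested, a comparison added after the values were seen. It was larger with BMH-21 for 9 members (as for 1.10% of all genes tested) and smaller for 5 (2.22%). The members with a larger change were Prss34, Myo7b, D030025P21Rik, Cutal, Fas, Cbln2, Fbxo39, Art3 and Eva1c. Those with a smaller one were Svop, Ntm, Gsg1l, Cacna1e and Slit1. Most of these calls depend on single libraries. The 9 became 3 without BMH-21 4 h replicate 1, BMH-21 4 h replicate 2, CX-5461 2 h replicate 1 or CX-5461 4 h replicate 3, and 5 without CX-5461 2 h replicate 2. The 5 became 2 without CX-5461 2 h replicate 3, and 3 without CX-5461 2 h replicate 2 or CX-5461 4 h replicate 2.

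Prss34, a mast cell protease, and Myo7b had the largest differences, and both round to 1.96. Prss34 had 4, 9 and 4 reads at 2 h of BMH-21 against 20, 22 and 16 at 2 h of CX-5461, and 204, 200 and 225 against 239, 115 and 183 at 4 h. The libraries of the inhibitors were separate at 2 h and overlapped at 4 h. The change was 1.96 ± 0.36 larger with BMH-21 (adjusted p = 6.2e-05). For Svop, a synaptic vesicle transporter-like protein, the 2 h libraries overlapped (-1.52, -1.55 and -1.44 under BMH-21 and -1.87, -1.43 and -1.08 under CX-5461). The 4 h libraries did not (-1.27, -0.57 and -0.86 against 0.91, 1.11 and 0.95), and its change was smaller with BMH-21 by -1.85 ± 0.38 (adjusted p = 0.00053). The calls for Fas and Svop held in all 21 alternatives run, and that of Prss34 in all but the one that set log2 values below 0 to 0, where the difference was 0.35.

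At 2 h, 1 member was higher with BMH-21 than with CX-5461 (2.47% of all genes tested were) and 12 were lower (1.52%). At 4 h, 11 members were higher with BMH-21 (9.35%) and 16 lower (8.49%), and the latter count was 10 without BMH-21 4 h replicate 2. Without BMH-21 2 h replicate 1, 3 members were higher at 2 h. At an unadjusted p under 0.05, 44 members differed in either direction at 2 h (14.6%) and 42 at 4 h (30.3%). Membership left out 202 silent genes that were on at 8 h with BMH-21 alone and 4 with CX-5461 alone. The choice may thus affect the balance of the directions, and nothing is read from that balance. Krt36 was the member that was higher at 2 h, by 0.60 ± 0.16 (adjusted p = 0.011), and the call was lost in 6 of the 15 alternatives run, at 0.49 without BMH-21 2 h replicate 2, 0.53 without BMH-21 2 h replicate 3 and 0.49 without CX-5461 2 h replicate 2. Its difference at 4 h was 1.18 ± 0.16 (adjusted p = 2.5e-09), where the libraries gave 3.87, 3.46 and 3.71 under BMH-21 and 2.43, 2.54 and 2.53 under CX-5461. That difference passed the threshold in every alternative run.

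Lower with BMH-21 at 2 h were, in order of size, Myo7b (-2.32 ± 0.37, adjusted p = 1.3e-06), Prss34 (-1.61 ± 0.25, adjusted p = 1.3e-06), Spata20 (-1.41 ± 0.22, adjusted p = 1.1e-06) and D030025P21Rik (-1.26 ± 0.23, adjusted p = 3.2e-05). Spata20, a gene named for its link to spermatogenesis, had 10, 7 and 10 reads under BMH-21 and 27, 27 and 28 under CX-5461. The others were Themis3, Glp2r, Ces2g, Cbln2, Heyl, Syndig1l, Gabra5 and Art3. The 12 differences rest on low counts, from 0 reads in a library of Myo7b to 79 in a library of Themis3, and 0 of the 12 passed the threshold when log2 values below 0 were set to 0. With voom weights, which give low counts less weight, 8 members were lower.

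At 4 h the members higher with BMH-21 were led by Tekt5, a sperm tail protein (1.31 ± 0.23, adjusted p = 6.7e-06), Adh7 (1.25 ± 0.32, adjusted p = 0.0022), Krt36 and Klhl30 (1.06 ± 0.23, adjusted p = 0.00025). Those lower were led by Svop (-1.89 ± 0.27, adjusted p = 1.5e-08), Ush1c (-1.25 ± 0.41, adjusted p = 0.02), Kcna6 (-1.23 ± 0.37, adjusted p = 0.011) and Pla2g2f (-1.17 ± 0.23, adjusted p = 6.1e-05). Tekt5 had 120, 146 and 114 reads under BMH-21 and 59, 47 and 53 under CX-5461 at 4 h. Ush1c, which encodes the scaffold protein harmonin, had 27, 23 and 22 against 59, 53 and 70. Neither gene's libraries overlapped between the inhibitors. Pla2g2f encodes a secreted phospholipase. The call for Ush1c was lost without BMH-21 4 h replicate 2 (-1.17), CX-5461 4 h replicate 2 (-1.22) or CX-5461 4 h replicate 3 (-1.14). That for Kcna6 was lost without BMH-21 4 h replicate 2 (-1.07) or CX-5461 4 h replicate 2 (-1.12). The call for Ush1c was also lost without the filter on low values. With log2 values below 0 set to 0, the calls for Ush1c (-0.18), Kcna6 (-0.28) and Adh7 (0) were all lost.

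A late group of 27 members reached the onset level only at 8 h with both inhibitors, although 23 of them had already risen between 2 h and 4 h with BMH-21 and 26 with CX-5461. Cacna1e, the pore subunit of the R-type calcium channel, is the clearest case. BMH-21 gave -2.17, -1.64 and -1.35 at 2 h, -1.34, -1.01 and -1.18 at 4 h and 4.23, 3.58 and 4.36 at 8 h. CX-5461 gave -2.00, -2.00 and -2.96 at 2 h, -0.50, -0.11 and -0.24 at 4 h and 2.74, 2.78 and 2.65 at 8 h. In reads this was 18, 28 and 24 at 4 h of BMH-21 and 1123, 1029 and 1287 at 8 h. Its 4 h level was lower with BMH-21 than with CX-5461 by -0.89 ± 0.25 (adjusted p = 0.0068), while at 8 h every BMH-21 library was above every CX-5461 library.

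Gsg1l followed the same course, with 13, 26 and 12 reads at 4 h of BMH-21 and 377, 437 and 432 at 8 h. Spatc1, a centrosome protein of sperm, and Slc2a9 were already near the onset level at 4 h, at 0.28 ± 0.35 and 0.29 ± 0.32 (SD, n = 3) under BMH-21 and 0.42 ± 0.01 and 0.38 ± 0.07 under CX-5461. Anks1b, a postsynaptic protein, was at 0.00 ± 0.34 and 0.46 ± 0.40 at 4 h and at 2.05 ± 0.07 and 1.99 ± 0.06 at 8 h.

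The median RefSeq span was 45.6 kb for the 26 late members with a span and 21.7 kb for the other 95. Of the late members 9 (34.6%) spanned over 100 kb, and of the others 13 (13.7%). The median over all 121 members with a span was 26.0 kb, and over the genes tested 22.5 kb. Anks1b (1100 kb), Ntm (969 kb), Cacna1e (494 kb), Ano2 (350 kb), Galnt18 (308 kb) and Gsg1l (204 kb) were late with both. Adgrb3 (767 kb) and Fstl4 (428 kb) were on at 4 h with both. Of the 22 members over 100 kb, 12 had onset at 8 h with BMH-21 and 9 with CX-5461. Among the 99 shorter members the numbers were 21 and 22. Whether length had a part in onset was not tested. Across the 121 members the Spearman correlation between span and the percentage of the 8 h rise (log2) reached by 4 h was -0.33 under BMH-21 and -0.22 under CX-5461. For exon length the corresponding values were 0.01 and 0.05. These points share their libraries, and the correlations are descriptions.

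**Figure D4:**
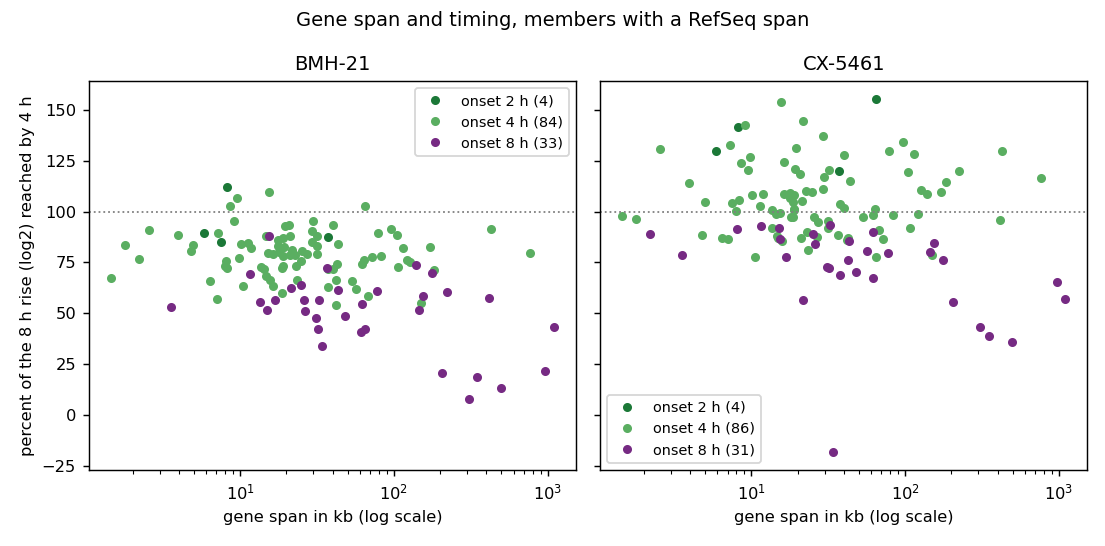
Percentage of the 8 h rise over untreated cells (log2) that was reached by 4 h, against gene span in kb on a log axis, for the 121 members with a RefSeq span, with color for onset time. The lowest points at large spans include Cacna1e, Galnt18, Ano2 and Gsg1l, and the CX-5461 point below 0 is Adh7.

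After 4 h the courses parted. With BMH-21 the median member went on from 1.26 to 2.45. Every BMH-21 8 h library was above every 4 h library for 110 members (as for 17.1% of all genes tested) and below for 2 (39.1%). With CX-5461, 48 members were higher without overlap (62.2%) and 39 lower (6.30%). By 4 h the median member had reached 74.3% of its 8 h rise (log2) under BMH-21 and 97.7% under CX-5461. The 8 h libraries chose the members, so these counts are a description. The CX-5461 8 h values depend on the scaling of the libraries: 67 member means were above their 4 h mean as deposited and 45 after centring each library on its median or with median-ratio factors. The median change with CX-5461 was 0.08 as deposited and -0.29 with median-ratio factors, where the median over the genes tested was 0.34 and -0.03.

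For 29 members every BMH-21 library was higher and every CX-5461 library lower at 8 h than at 4 h. This held for 1.51% of all genes tested, with the values as deposited. The number of members was 57 with median-ratio factors, for which the share of all genes was not computed, so 57 cannot be set against 1.51%. Fas, Krt36, Klhl30, Klhdc7a, Foxn1, Myog, P2rx6, Tshr, Heyl, Cbln2 and Arhgef33 were among the 29. Foxn1 had 617, 787 and 847 reads at 8 h of BMH-21 and 128, 135 and 101 at 8 h of CX-5461, where 4 h of CX-5461 had given 416, 295 and 393. Art4, an ADP-ribosyltransferase family gene, had the largest decline with CX-5461 (-1.74), from 409, 337 and 337 reads to 124, 111 and 59.

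Fosl1 and Scn4b were lower at 8 h than at 4 h, without overlap, with both inhibitors. Fosl1 values with BMH-21 were 3.92, 3.61 and 3.51 at 4 h and 3.13, 2.74 and 3.30 at 8 h. With CX-5461 they were 3.07, 3.14 and 3.04 at 4 h and 1.70, 1.76 and 1.22 at 8 h. Scn4b went from 509, 523 and 471 reads to 423, 531 and 495 with BMH-21, which is lower once divided by the scaled library size, and from 465, 378 and 455 to 128, 123 and 104 with CX-5461.

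**Figure D5:**
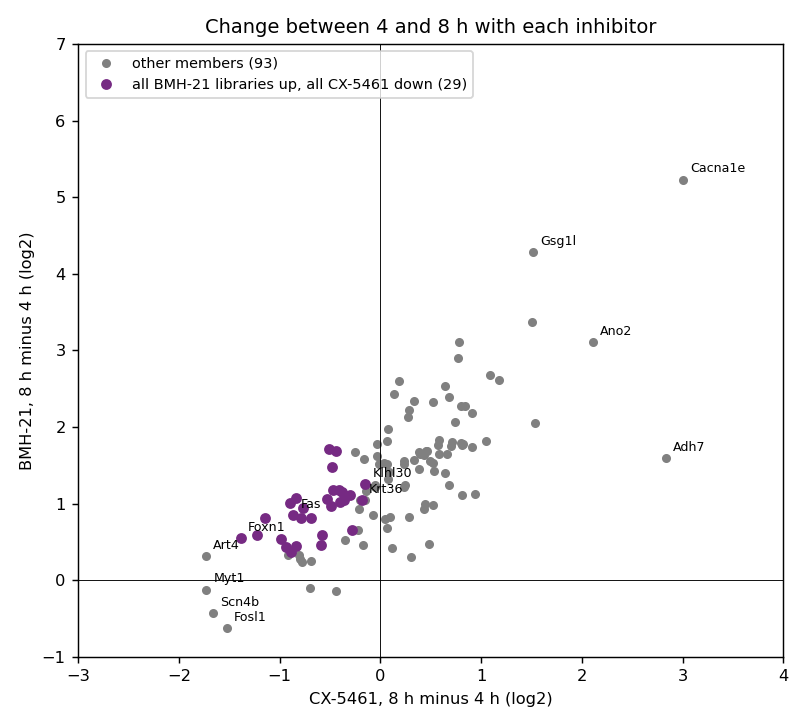
Difference between the 8 h and 4 h means (log2) of each member, CX-5461 on the horizontal and BMH-21 on the vertical axis. Purple points are the 29 members for which all BMH-21 libraries were higher and all CX-5461 libraries lower at 8 h; Cacna1e has the largest increase on both axes, and Fosl1, Scn4b and Myt1 are among the points below 0 on both.

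At 8 h the BMH-21 mean was above the CX-5461 mean for 120 of the 122 members. The exceptions were Ush1c and Svop. Every BMH-21 library was above every CX-5461 library for 112 members, as for 12.6% of all genes tested. The median difference was 1.22 as deposited and 1.69 with median-ratio factors, against -0.48 and -0.01 over the genes tested. Svop had 120, 155 and 100 reads under BMH-21 and 179, 179 and 178 under CX-5461 at 8 h.

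Some members lie close to other genes, which bears on what their reads can show. A gene on the same strand ended within 10 kb upstream of 26 members (21.3%), as for 15.8% of the other silent genes, and 17 of these upstream genes (13.9% of members) were on in untreated cells, against 7.58%. Of these 17 upstream genes, 5 had a higher and 12 a lower mean at 4 h of BMH-21 than in untreated cells, and with CX-5461 the numbers were 6 and 11. The other silent genes had 420 such upstream genes. BMH-21 at 4 h left 154 of the 420 higher than in untreated cells, while 266 were lower. CX-5461 at 4 h left 134 higher, while 286 were lower. Lower means were thus more frequent in both sets, and the splits were not tested. Among the 17 upstream genes of members, the pair with the largest increases, chosen after their values were seen, were Dusp2 and Shpk. Astl starts 263 bases after the end of Dusp2, a phosphatase gene whose mean went from 0.71 in untreated cells to 4.59 at 4 h of BMH-21. Trpv1 lies 9781 bases after Shpk, which went from 1.28 to 4.28 and then 5.68 at 8 h. Spans of 26 members overlapped a gene on the opposite strand and those of 6 a gene on the same strand, and 24.6% overlapped any gene, as did 25.3% of the other silent genes. The library kit was directional, but whether strand was used in counting is not given in the sources used here, and reads of overlapping genes cannot be told apart. Whether transcription continuing from an upstream gene contributed to any member was not tested.

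The lists of other cell types held none of the members, but few of their genes could be members. Of 10 markers each, those silent in untreated cells were 5 for fibroblast or feeder, 2 for neuronal and 3 for endoderm cells. They were 0 for trophoblast and 4 for epidermal cells, the omitted Krt5 among the 4. Nothing is read from the absence of members. The summed levels of the lists are given in CPM for untreated cells, then for 8 h of BMH-21, then for 8 h of CX-5461. Fibroblast or feeder markers summed to 36.0 to 40.4, 50.6 to 60.1 and 54.1 to 54.9. Neuronal markers summed to 203 to 221, 110 to 122 and 238 to 259, so they were lower under BMH-21 and higher under CX-5461 than in untreated cells. Trophoblast markers summed to 110 to 123, 197 to 221 and 190 to 215, and endoderm markers to 18.0 to 21.6, 19.2 to 23.3 and 23.1 to 23.7. No list had a marker at 0 reads in every library. The part of these shifts in the results was not tested.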

How the data were processed

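PolyA RNA was sequenced from E14 embryonic stem cells in 7 groups of 3 libraries, per the labels' protocols. The authors deposited 1 table of log2 CPM. The submitters' processing notes name Trim Galore 0.5.0, TopHat2 2.1.1, DESeq2 1.30.1, edgeR 3.32.1, limma 3.46.0 and the mm10 build, without their roles; the counting tool and its use of strand are not given in the sources used here. The deposited values have the form that limma's voom gives, log2 CPM with 0.5 added to each read count, and reads were recovered to within 1.73e-08 of whole numbers. The deposited library factors ranged from 0.832 to 1.38 (median-ratio factors from 0.941 to 1.11), which moves all values of a library together. Totals were 46604397 to 62812641 reads, and precision at 0 h and 2 h is limited by low counts.

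The deposited values were fitted with limma 3.58.1 (R 4.3.3, trended variance, 21 libraries together) over the 14666 genes with log2 above 0 in at least 3 libraries, which set 6234 aside. P-values were adjusted by the Benjamini-Hochberg method over all genes tested, with a threshold of 0.05, and all tests were two-sided. The tests compared 4 h with 2 h for each inhibitor and the inhibitors at 2 h and at 4 h. The steps were tested on simulated data. Tables and figures used Python 3.11.15, pandas 2.3.3 and matplotlib 3.10.9. Names, spans and promoters came from RefSeq GRCm38.p6, with 121 of 122 members matched, 4 of them by an older symbol.

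The members and lists were chosen with earlier results of these data known. Named members were Klhl30, the 6 with the highest average 8 h mean, those on at 2 h, the 5 largest changes from 2 h to 4 h, the 4 largest differences between inhibitors in each direction among members past the threshold without overlap, the 5 highest late members, up to 3 per list and those nearest the thresholds. Other names, the role groups, the test of the difference in change, gene spans, motifs and neighbours were added after the values were seen. Alternatives varied the filter, scaling, offset, low values, weights, libraries and the replicate number.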

Additional observations from a re-analysis of the deposited data

Results flagged for a closer look

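The change from 2 h to 4 h differed between BMH-21 and CX-5461 for 14 members by a test of the difference itself (limma, Benjamini-Hochberg adjusted over all genes tested). As BMH-21 minus CX-5461 on the log2 scale, it was 1.96 for Prss34, 1.96 for Myo7b, 1.14 for D030025P21Rik, 1.13 for Cutal, 1.09 for Fas, 1.02 for Cbln2, 0.97 for Fbxo39, 0.95 for Art3 and 0.91 for Eva1c. It was -1.85 for Svop, -1.68 for Ntm, -1.61 for Gsg1l, -1.49 for Cacna1e and -0.93 for Slit1. Over the 21 alternatives run, the highest adjusted p was 0.039 for Fas and 0.006 for Svop. The call of Prss34 was lost in 1 alternative, that of Ntm in 3, that of Cacna1e in 4, and those of the other members in 8 to 13.

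For 29 members every BMH-21 library was higher and every CX-5461 library lower at 8 h than at 4 h. The 8 h libraries chose the members, and this difference was not tested.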

How the results depend on the processing

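The counts of members that rose from 2 h to 4 h stayed within 1.5 times of 118 and 121 under every alternative run, and quantile normalization made 1 member lower with CX-5461. At 2 h, the 1 member higher with BMH-21 became 0 without the filter, with voom weights and with only the 2 groups compared, and 0 to 3 when each library was left out in turn. The 12 lower became 19 with median-ratio factors, 20 with quantile normalization, 0 with log2 values below 0 set to 0 and 7 with only the 2 groups. Calls over all genes tested at 2 h also moved, from 585 as deposited (61.9% of them higher with BMH-21) to 2208 with median-ratio factors (36.4%). With quantile normalization there were 1910 (41.8%). At 4 h, the 11 higher became 22 with low values set to 0, 22 with voom weights and 18 with only the 2 groups, and the 16 lower became 10 to 14 with each library left out. Median-ratio factors left 11 members higher and 19 lower at 4 h, while calls over all genes tested went from 2617 (52.4% higher) to 6116 (42.2%). Member counts under other scalings are therefore not comparable with the shares of all genes as deposited. The 9 members with a larger change with BMH-21 became 2 without the filter, 16 after centring, 19 with quantile normalization and 3 to 10 with each library left out. The 5 with a smaller change became 3 without the filter, 8 with median-ratio factors, 12 with low values set to 0, 2 with only the 4 groups and 2 to 7 with each library left out. The difference for Myo7b turned to -0.2949 with low values set to 0, a setting that removes most of what 2 h libraries hold. For the other changes the cause was not tested.

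Stricter limits of -2.5 and 1.5 left 10 members, and thresholds met by every library left 65. Centring kept 91 of the 122 members and median-ratio factors 93. The 29 members moving in opposite directions after 4 h became 56 after centring and 57 with median-ratio factors.

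Same-numbered libraries did not deviate together (correlations from -0.13 to 0.08), so the numbers were not taken as pairs. With a replicate block 118 and 121 members rose, 1 was higher and 12 lower at 2 h, and 12 were higher and 15 lower at 4 h. The change was larger for 9 and smaller for 5.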
